A study of Mus musculus with 6 samples.

Results

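The S100A proteins are small calcium-binding proteins, and 9 of their genes were followed here in creeping fat, the mesenteric adipose tissue that wraps an injured gut. The 9 were taken by gene symbol (S100a1, S100a4, S100a6, S100a8, S100a9, S100a10, S100a11, S100a13 and S100a16) from a table of 22134 genes, which lists 18 S100 symbols in all. RNA came from adipose tissue of wild-type mice in 6 libraries. The creeping fat group holds 3 libraries, from mice given repeated colonic cautery injury, and the control group holds 3 libraries of mesenteric adipose tissue from mice with no injury. The labels do not give age or sex, the time after injury, or whether each library is a different animal. The p-values therefore describe spread among these 6 libraries, which may be technical. Levels are FPKM, reads scaled by gene length and library total, which allows levels of different genes to be set side by side.

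Most S100A proteins, though not all, carry paired calcium-binding loops of the EF-hand type. Most of these work as dimers that expose a binding surface for a partner protein when calcium rises. S100A8 and S100A9 pair with each other as calprotectin, which fills the cytoplasm of neutrophils and monocytes, binds zinc and manganese, and acts outside the cell on TLR4 and RAGE. S100A4, S100A6, S100A10 and S100A11 are widespread in fibroblasts, macrophages and other stromal cells, where they bind myosin, annexins and other partners, and S100A1, S100A13 and S100A16 are known from muscle, secretion and adipocyte biology.

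All 9 genes lie on mouse chromosome 3 and are protein-coding in the GENCODE M21 annotation of mm10. S100a8 (90668978 to 90670035, plus strand) and S100a9 (90692632 to 90695721, minus strand) are neighbours that point towards each other. S100a4 (90603771 to 90606045) and S100a6 (90612882 to 90624181) stand on the plus strand with S100a5 between them. S100a1 (90511034 to 90514392, minus strand) and S100a13 (90514435 to 90524581, plus strand) start next to each other and point apart, S100a16 spans 90537254 to 90543151, and S100a11 (93520488 to 93526287) and S100a10 (93555080 to 93564643) lie farther along.

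Recovered depth ran between 32586566 and 35885611 reads over the creeping fat libraries and between 30937155 and 43074659 reads over the controls. Markers of the adipocyte fell in creeping fat (13 of 14 tested called lower, 0 higher; summed level 1292 to 3236 FPKM in creeping fat and 5782 to 16870 FPKM in controls). Transcripts of other organs were also present: 10 seminal vesicle genes made up 5.05 to 9.05% of summed FPKM in creeping fat and 0.00735 to 0.0276% in controls, all 10 called higher. Pancreatic acinar genes made up 0.00766 to 1.66% in creeping fat, highest in creeping fat 2, and 5.05 to 12.9% in controls, with 16 of 23 tested called lower. Creeping fat 2 stands apart for its pancreatic share, and control 2 for the highest B cell marker share, 0.0955% against 0.0233 and 0.0307% in the other controls, for the lowest S100A level and for its low adipocyte marker share, 1.69% against 4.64 and 4.27% in the other controls. The part of that share in the low levels of S100a1, S100a13, S100a16, S100a10, S100a11 and S100a6 in control 2 was not tested. Values without control 2, or without creeping fat 2 and control 2 together, are given for the members whose call or sign they change. The S100a6 value without control 2 is also given. Without control 2, calls over all 12812 genes tested numbered 2896 higher and 1857 lower, against 1198 and 872 with all libraries. The adipocyte count was 8 without creeping fat 1, creeping fat 3 or control 3, and the pancreatic count 4 to 6 without creeping fat 1, creeping fat 3, control 1 or control 3. In bulk tissue, fewer cells of a type and less RNA per cell cannot be told apart.

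Of the 9 genes, 3 passed the test in creeping fat and all 3 were higher: S100a8, S100a4 and S100a6. Genes were called at a Benjamini-Hochberg adjusted p under 0.05 in limma on log2(FPKM + 1), over 12812 genes that reached 1 FPKM in 3 or more libraries, and all 9 genes met that level. None of the 9 was called lower by limma, by an unadjusted p under 0.05, or by limma's voom on recovered reads. Across all genes tested, 1198 were called higher (9.35%) and 872 lower (6.81%). The members' median log2 fold change was 0.34, against 0.02 over all genes tested, and 7 of the 9 values were above 0. Without control 2, S100a10, S100a11 and S100a16 fell to -0.27, -0.15 and -0.06, and the median over all genes was 0.13. Levels of 4 genes in all 3 creeping fat libraries exceeded all 3 controls (S100a8, S100a9, S100a4 and S100a6), as did 20.2% of all genes tested, while 5 genes overlapped and 0 lay below all controls, as did 16.9% of all genes.

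**Figure D1:**
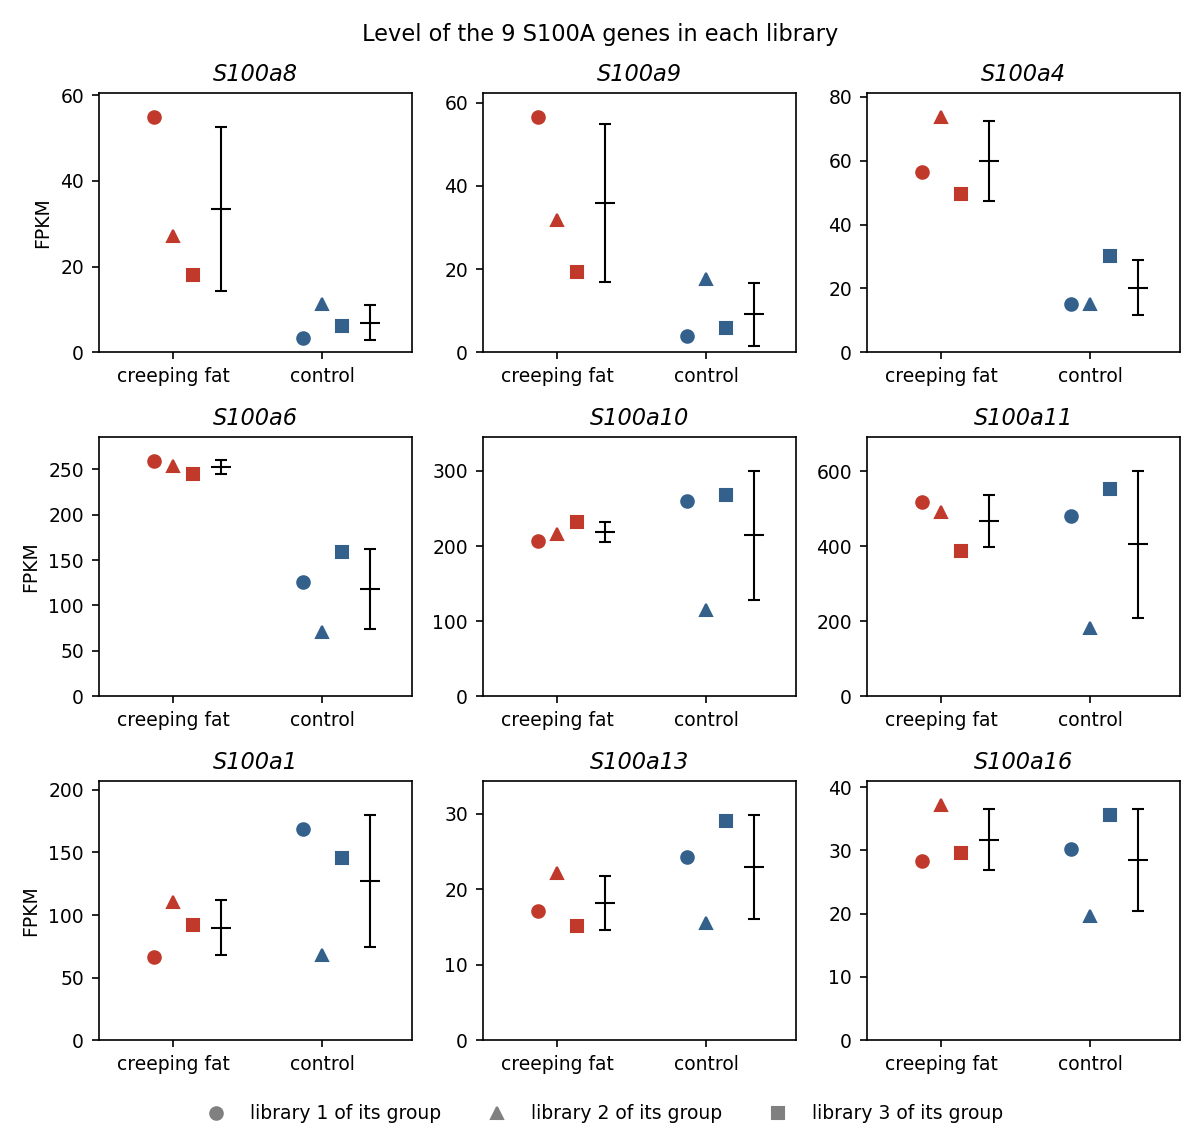
Level in FPKM of each of the 9 S100A genes, 1 panel a gene with its own axis from 0; red points are creeping fat, blue points control, the shape gives the library number and the bars show mean and SD (n = 3). All creeping fat points of S100a8, S100a9, S100a4 and S100a6 lie above the control points. Control 2 is the lowest control for S100a6, S100a10, S100a11, S100a1, S100a13 and S100a16, and by a small margin for S100a4.

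The 9 genes together held 0.386, 0.357 and 0.309% of summed FPKM in the creeping fat libraries, against 0.305, 0.151 and 0.354% in the controls. S100a11 was the most abundant member in all 6 libraries, with 35.6 to 41.0% of the members' sum in creeping fat and 35.5 to 44.8% in controls. S100a6 came second in all 3 creeping fat libraries, and S100a10 came second in all 3 controls. In creeping fat these neighbours in the order stood apart, S100a6 at 244.6 to 259.3 FPKM and S100a10 at 206.3 to 232.6 FPKM. S100a8 and S100a9 overlapped each other in both groups, as did S100a16 with S100a8 and S100a9 in creeping fat. The pair S100a8 and S100a9 made up 8.81, 4.67 and 3.45% of the members' sum in the creeping fat libraries, against 0.655, 5.61 and 0.970% in the controls. Control 2 exceeded creeping fat 2 and 3 in that share.

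The promoters of the 4 genes that lay above all controls are shown because their levels are the ones that set the groups apart. Each run is 250 bases ending just before the RefSeq gene start, from RefSeq on build GRCm38.p6, read 5′ to 3′ on the gene's own strand; 8 of the 9 genes matched this table, in 9 windows. Capitals mark matches, on either strand, of a TATA box (TATAAA), a C/EBP motif (TTGCNNAA), an AP-1 motif (TGANTCA), the ETS core of PU.1 (GAGGAA, which reads TTCCTC on the other strand) or a GC box (GGGCGG). No matches overlap.
S100a8, chr3:90668821-90669070, plus strand: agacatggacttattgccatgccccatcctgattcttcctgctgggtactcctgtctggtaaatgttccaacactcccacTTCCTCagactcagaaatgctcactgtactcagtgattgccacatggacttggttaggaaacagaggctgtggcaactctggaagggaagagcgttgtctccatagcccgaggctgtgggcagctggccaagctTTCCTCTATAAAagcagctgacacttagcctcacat
S100a9, chr3:90695722-90695971, minus strand: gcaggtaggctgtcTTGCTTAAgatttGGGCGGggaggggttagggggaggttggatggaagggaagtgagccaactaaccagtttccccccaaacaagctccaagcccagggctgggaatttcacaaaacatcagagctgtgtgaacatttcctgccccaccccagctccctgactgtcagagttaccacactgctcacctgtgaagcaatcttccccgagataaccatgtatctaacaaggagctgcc
S100a4, chr3:90603520-90603769, plus strand: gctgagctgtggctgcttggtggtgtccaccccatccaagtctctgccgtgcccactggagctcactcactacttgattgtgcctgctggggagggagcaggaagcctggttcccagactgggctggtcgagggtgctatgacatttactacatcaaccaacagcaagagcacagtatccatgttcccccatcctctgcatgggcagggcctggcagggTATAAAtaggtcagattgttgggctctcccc
S100a6, chr3:90612644-90612893, plus strand: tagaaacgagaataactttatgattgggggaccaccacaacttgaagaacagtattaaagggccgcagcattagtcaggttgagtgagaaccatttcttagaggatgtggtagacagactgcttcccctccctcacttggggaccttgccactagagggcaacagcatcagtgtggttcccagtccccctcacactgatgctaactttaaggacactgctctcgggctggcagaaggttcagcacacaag
The TATA box begins 30 bases before the start of S100a8 and 31 before that of S100a4, and 12.4% of all 32851 RefSeq promoters hold 1 in this window. TTCCTC lies at 170 and 36 bases before S100a8, and its motif is in 23.3% of promoters. The C/EBP motif lies 236 bases before S100a9 with a GC box 223 bases before the same start (9.56 and 32.7% of promoters). S100a6 has none of these letters in its window. S100a1 and S100a13, whose windows overlap, also have no match, and S100a11 has 2 AP-1 motifs (6.75% of promoters), 3 GC boxes and 1 GAGGAA. The windows of the S100a16 starts hold 1 TTCCTC, 1 AP-1 motif and 1 GC box between them. A match is a description of the letters.

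S100a8, the zinc-binding alarmin of neutrophils and monocytes, was read at 54.9, 27.2 and 18.1 FPKM in creeping fat 1 to 3, against 3.35, 11.3 and 6.17 FPKM in control 1 to 3. Creeping fat 1 was highest and control 1 lowest, and the groups did not overlap. The mean was 33.4 ± 19.2 FPKM in creeping fat and 6.94 ± 4.03 FPKM in controls (SD, n = 3 each), 4.82-fold higher in creeping fat. These levels rest on 778, 373 and 233 reads in creeping fat and 51, 138 and 105 reads in controls, and the exact Poisson 95% interval runs from 15.9 to 20.6 FPKM in creeping fat 3 and from 9.48 to 13.3 FPKM in control 2. Intervals of this kind cover counting error only. The log2 fold change was 2.10 ± 0.49 (SE), with a 95% interval of 0.93 to 3.27 and an adjusted p of 0.0309 in limma. The call ended without creeping fat 1 (adjusted p 0.0926), creeping fat 2 (0.0798), control 1 (0.0847) or control 3 (0.106), with log2 fold changes of 1.68 to 2.48 over the 6 libraries left out in turn, and without the filter on low values (0.0598) in limma. It also ended with the replicate number as a block in limma (0.0767).

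S100a9, the calprotectin partner of S100a8, was read at 56.5, 31.8 and 19.4 FPKM in creeping fat 1 to 3, against 3.93, 17.7 and 5.76 FPKM in control 1 to 3. Its order of libraries within creeping fat was that of S100a8, and the lowest creeping fat library stood just above the highest control. The mean was 35.9 ± 18.9 FPKM in creeping fat and 9.12 ± 7.47 FPKM in controls, 3.94-fold higher in creeping fat (SD, n = 3 each). The exact Poisson 95% intervals of creeping fat 3 (17.4 to 21.6 FPKM) and control 2 (15.7 to 19.8 FPKM) overlap. The log2 fold change was 1.98 ± 0.56 (SE), with a 95% interval of 0.64 to 3.33, and it did not pass the test (limma adjusted p 0.0579). Without control 2, the value was 2.55 and the limma adjusted p 0.004, and without creeping fat 2 and control 2 together, 2.57 and 0.00368. The S100a8 to S100a9 ratio was 0.971, 0.855 and 0.933 in creeping fat and 0.852, 0.638 and 1.07 in controls, and the groups overlapped (log2 difference 0.14, exact permutation p 0.7).

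The lists of cells known to carry calprotectin were read beside it. Of 14 neutrophil markers, 9 reached the level for testing, and 2 were called higher and 1 lower, with a median log2 fold change of 0.66. Their summed levels were 112.7 to 273.1 FPKM in creeping fat and 50.4 to 222.5 FPKM in controls. Lcn2 and Mmp9 made up most of that sum in every library except control 2. Lcn2 was read at 54.9, 141.4 and 25.9 FPKM in creeping fat and 157.5, 9.13 and 202.0 FPKM in controls. Mmp9 was read at 67.3, 98.4 and 62.2 FPKM in creeping fat and 7.08, 4.74 and 8.13 FPKM in controls. Ly6g, a neutrophil surface marker, was read at 2.72, 0.612 and 0.455 FPKM in creeping fat and 0, 0.822 and 0.271 FPKM in controls, and Mpo was also at 0 in 1 library. Mmp9, the gelatinase stored in neutrophil granules and also made by macrophages, rose by 3.33 ± 0.25, Il1r2 by 2.01 ± 0.34, and Elane, neutrophil elastase, fell by 0.96 ± 0.17 on the log2 scale (SE; limma adjusted p 0.000863, 0.0106 and 0.0122). Il1r2 was read at 0.192, 0.623 and 0.215 FPKM in controls, and Elane at 0.271, 0.124 and 0.497 FPKM in creeping fat. Each of these genes reached the level for testing only through the group where it is high. The Il1r2 call ended without control 3 (0.0509), and that of Elane without creeping fat 1 (0.0573) or control 3 (0.0587) in limma. Of 7 monocyte markers, 3 were called higher and 0 lower (median 1.22; summed 89.0 to 108.3 FPKM in creeping fat and 27.0 to 78.4 FPKM in controls), namely Ly6c2, Fcgr1 and Ccr2. Fcgr1 kept its call in every setting, Ly6c2 lost it without creeping fat 1 (0.108), creeping fat 3 (0.107), control 1 (0.095) or control 3 (0.114) and with no filter (0.0592), and Ccr2 without creeping fat 1 (0.0786), 2 (0.0721) or 3 (0.0592), all in limma. Without control 2, the count called higher was 4 neutrophil and 5 monocyte markers. Over all 12812 genes tested, calls higher then numbered 2896, against 1198 with all libraries. Of 14 macrophage markers, 10 were called higher and 0 lower (median 1.74; 3767 to 6057 FPKM in creeping fat and 871.5 to 1855 FPKM in controls), among them Lyz2, and 5 were called higher without creeping fat 1, creeping fat 3 or control 3. The part these lists play in the S100a8 and S100a9 levels was not tested. S100a8 over Lyz2, the macrophage and neutrophil lysozyme, was 0.0158, 0.0131 and 0.00475 in creeping fat and 0.00716, 0.0147 and 0.00778 in controls, a ratio chosen after its values were seen, and the groups overlapped.

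S100a4, which binds non-muscle myosin and is widely used to mark fibroblasts although macrophages also carry it, was read at 56.5, 73.6 and 49.5 FPKM in creeping fat 1 to 3, against 15.3, 15.3 and 30.2 FPKM in control 1 to 3. All creeping fat libraries were above all controls, and control 3 was the highest control. The mean was 59.9 ± 12.4 FPKM in creeping fat and 20.3 ± 8.62 FPKM in controls (SD, n = 3 each), 2.95-fold higher in creeping fat. The log2 fold change was 1.57 ± 0.30 (SE), with a 95% interval of 0.87 to 2.27 and an adjusted p of 0.0147 in limma. The call ended without creeping fat 1 (adjusted p 0.0596), creeping fat 2 (0.0543) or control 1 (0.0505) in limma, with values of 1.41 to 1.88. It also ended with the replicate number as a block in limma (0.0528).

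S100a6, or calcyclin, which binds annexins and the calcyclin-binding protein Cacybp, was read at 259.3, 253.5 and 244.6 FPKM in creeping fat 1 to 3, against 125.8, 70.9 and 158.6 FPKM in control 1 to 3. The creeping fat libraries lay within a narrow band and the controls were spread more widely, with no overlap. The mean was 252 ± 7.44 FPKM in creeping fat and 118 ± 44.3 FPKM in controls, 2.13-fold higher in creeping fat (SD, n = 3 each). The log2 fold change was 1.16 ± 0.29 (SE), with a 95% interval of 0.46 to 1.86 and an adjusted p of 0.0398 in limma. Control 2 was the lowest control, and without it the log2 fold change was 0.83 (limma adjusted p 0.00643). The call ended without creeping fat 1 (0.136), creeping fat 2 (0.113), creeping fat 3 (0.116) or control 1 (0.0825) in limma, with values of 0.83 to 1.41. It also ended with no filter on low values (0.0694), with median ratio scaling (0.0913) or with the replicate number as a block (0.0747), all in limma.

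S100a10, or p11, which sits with annexin A2 at the plasma membrane and binds tissue plasminogen activator, was read at 206.3, 216.7 and 232.6 FPKM in creeping fat 1 to 3, against 259.8, 115.1 and 267.4 FPKM in control 1 to 3. The creeping fat libraries fell between control 2 and the other controls. The log2 fold change was 0.12 ± 0.33 (SE; 95% interval -0.67 to 0.92; limma adjusted p 0.852), and without control 2 it was -0.27. S100a11, or calgizzarin, which binds annexin A1, was read at 518.6, 492.2 and 387.5 FPKM in creeping fat and 479.7, 183.0 and 551.4 FPKM in controls. These groups overlapped as well, with control 2 lowest. Its log2 fold change was 0.34 ± 0.42 (95% interval -0.66 to 1.34; limma adjusted p 0.653) and -0.15 without control 2. A processed pseudogene, S100a11-ps, lies on chromosome 12 and has no row in the table, and how reads shared with it were counted is not given in the sources used here.

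S100a1, a regulator of calcium handling best known from heart and skeletal muscle, was read at 66.6, 110.5 and 92.1 FPKM in creeping fat 1 to 3, against 168.6, 67.8 and 145.5 FPKM in control 1 to 3. Control 1 and control 3 were above all creeping fat libraries, and control 2 lay near the lowest of them. The log2 fold change was -0.43 ± 0.37 (SE; 95% interval -1.31 to 0.45; limma adjusted p 0.501). Without control 2 it was -0.83 with a limma adjusted p of 0.028, and without creeping fat 2 and control 2 together -0.99 and 0.00842. S100a13, which takes part in export of Fgf1, was read at 17.1, 22.1 and 15.1 FPKM in creeping fat and 24.2, 15.4 and 29.1 FPKM in controls. It has the same shape, with control 2 among the creeping fat values. Its log2 fold change was -0.30 ± 0.26 (95% interval -0.91 to 0.32; limma adjusted p 0.504), -0.54 without control 2 (0.0552) and -0.69 without both (limma adjusted p 0.0157).

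S100a16, which is known to promote adipocyte differentiation in cultured mouse preadipocytes, was read at 28.3, 37.2 and 29.6 FPKM in creeping fat 1 to 3, against 30.2, 19.7 and 35.6 FPKM in control 1 to 3. The groups overlapped, with control 1 and control 3 within the creeping fat range and control 2 below it. Its log2 fold change was 0.18 ± 0.24 (SE; 95% interval -0.39 to 0.75; limma adjusted p 0.682) and -0.06 without control 2. The 14 adipocyte markers had a median log2 fold change of -2.77. S100a1 over Adipoq, adiponectin, was 0.832, 0.634 and 0.820 in creeping fat against 0.110, 0.151 and 0.105 in controls, and S100a16 over Adipoq was 0.354, 0.213 and 0.263 in creeping fat against 0.0197, 0.0437 and 0.0256 in controls, both with no overlap and both chosen after their values were seen.

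**Figure D2:**
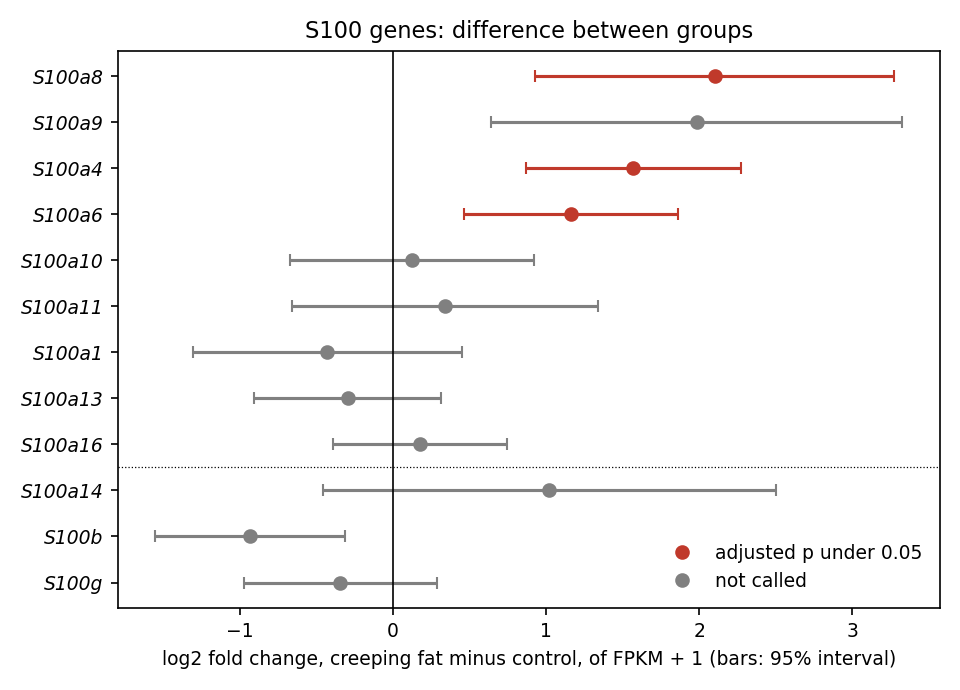
Log2 fold change of FPKM + 1, creeping fat minus control, for the 9 S100A genes and, under the dotted line, the 3 other S100 genes tested; bars are 95% intervals and red marks an adjusted p under 0.05. S100a8, S100a4 and S100a6 are red, and the S100a9 interval of 0.64 to 3.33 lies above 0 without a call.

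Whether the calprotectin genes differed from the other members within each library was read from 14 ratios of S100a8 or S100a9 to the other 7 genes, tested with S100a8 to S100a9 by an exact two-sided permutation test on log2 ratios. The smallest p that 3 against 3 libraries allow is 0.1, and over the 15 ratios the smallest adjusted value was 0.375, so no ratio passed. S100a8 over S100a1 was 0.824, 0.246 and 0.197 in creeping fat and 0.0199, 0.166 and 0.0424 in controls, a log2 difference of 2.72 with no overlap (exact p 0.1). S100a8 over S100a13 and over S100a16 also did not overlap (2.60 and 2.10 higher on the log2 scale, exact p 0.1 each), so 3 of 7 S100a8 ratios were higher in every creeping fat library. S100a8 over S100a4 was 0.972, 0.370 and 0.366 in creeping fat against 0.219, 0.740 and 0.204 in controls (log2 difference 0.66, exact p 0.5), and over S100a6 it was 0.212, 0.107 and 0.0740 in creeping fat against 0.0266, 0.159 and 0.0389 in controls (1.12, exact p 0.3), with control 2 above most creeping fat libraries in both. For S100a9, 1 of 7 ratios, that over S100a13, had no overlap (2.46, exact p 0.1). The levels of S100a8 and S100a9 themselves lay above all controls. How often their ratios to genes outside the family have no overlap was not computed, so these counts are a description only.

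**Figure D3:**
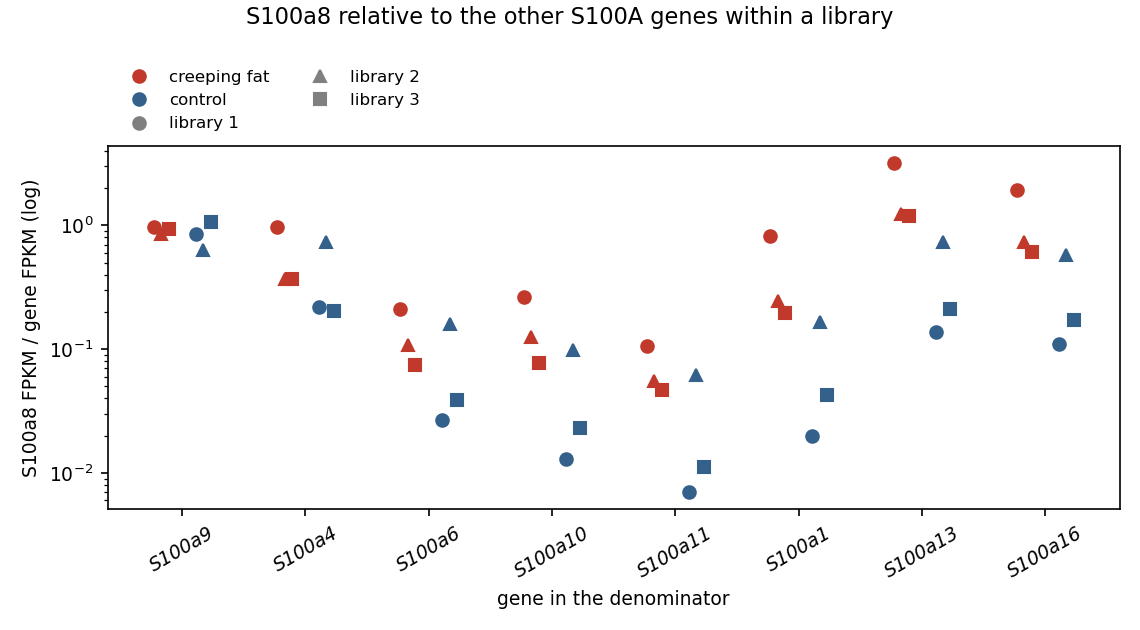
Ratio of the S100a8 level to that of each other S100A gene in the same library, on a log axis; red is creeping fat, blue control, and the shape gives the library number. Ratios to S100a1, S100a13 and S100a16 have every creeping fat point above every control point, while in ratios to S100a4 and S100a6 control 2 lies among the creeping fat points.

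How the members varied across the 6 libraries is given as Pearson r of log2(FPKM + 1), a description over libraries that share group and depth. S100a8 and S100a9 had r = 0.985, S100a4 and S100a6 had 0.922, S100a10 and S100a11 had 0.917 and S100a1 and S100a13 had 0.849, while S100a8 and S100a1 had -0.748. Among the 8418 genes averaging 5 FPKM or more, those most like S100a8 were Lxn (0.998), Emb (0.993) and Agrn (0.992), and those most like S100a9 were Plod1 (0.996), Gmds (0.992) and Acbd3 (0.991). Lxn, latexin, was read at 17.3, 13.4 and 11.4 FPKM in creeping fat and 5.51, 9.51 and 7.15 FPKM in controls. The genes most like S100a4 were Arf1 (0.999), Oasl2 (0.994) and Ykt6 (0.993), those most like S100a6 were Gng5 (0.997), Morf4l1 (0.996) and Gabarap (0.995), and those most like S100a16 were Efna5 (0.990), Tmem256 (0.987) and Cks1b (0.986). These are the highest of 8418 values over 6 libraries, and how high r runs through that selection alone was not tested.

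The partner list came next, which holds known binding partners of the members and also Plaur, for which no binding to a member is claimed here. Of 10 genes of that list tested, 2 were called higher and 0 lower, with a median log2 fold change of 0.21. Plat, tissue plasminogen activator, rose to 31.4 ± 4.43 FPKM in creeping fat, against 12.4 ± 1.37 FPKM in controls, and Plaur, the urokinase receptor, rose to 17.7 ± 2.07 FPKM in creeping fat, against 8.52 ± 2.48 FPKM in controls (limma log2 fold changes 1.27 ± 0.16 and 1.00 ± 0.22, adjusted p 0.00433 and 0.0241). The Plaur call ended without creeping fat 1 (0.0703), creeping fat 2 (0.0786), creeping fat 3 (0.0974) or control 3 (0.0859) in limma. Anxa2, the S100a10 partner, averaged 167 ± 8.80 FPKM in creeping fat and 186 ± 89.5 FPKM in controls (-0.01 ± 0.40, limma adjusted p 0.994), and S100a10 over Anxa2 was 1.21, 1.24 and 1.48 in creeping fat against 1.20, 1.35 and 1.04 in controls. Anxa1 averaged 149 ± 16.2 FPKM in creeping fat and 89.2 ± 47.4 FPKM in controls (0.90 ± 0.44, limma adjusted p 0.22), and S100a11 over Anxa1 was 3.22, 3.77 and 2.49 in creeping fat against 4.82, 4.89 and 4.22 in controls, lower in every creeping fat library. S100a6 over Cacybp was 16.2, 20.4 and 16.4 in creeping fat against 6.72, 2.97 and 9.47 in controls, higher in every creeping fat library. Cacybp averaged 14.4 ± 1.86 FPKM in creeping fat and 19.8 ± 3.68 FPKM in controls (-0.42 ± 0.18, limma adjusted p 0.165). In every creeping fat library Cacybp lay below all controls and S100a6 above them, so their ratio had to be higher there. Myh9, the myosin bound by S100a4, gave 0.50 ± 0.24 (limma adjusted p 0.213), Fgf1, the cargo of S100a13, gave -0.81 ± 0.40 (0.229), and Anxa11 gave 0.03 ± 0.13 (0.911). Without control 2, Anxa2 gave -0.49 (0.0361), Myh9 gave 0.75 (0.00545) and Fgf1 gave -1.28 (0.00378), all 3 then past the test in limma. That makes 3 genes of the partner list higher and 2 lower. Calls over all 12812 genes tested also rose without control 2, to 2896 higher and 1857 lower, from 1198 and 872. Without creeping fat 2 and control 2 together, Myh9 gave 0.74 (0.0117) and Fgf1 gave -1.46 (0.000624) in limma. The ratios of members to partners were chosen after their values were seen and carry no test.

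Of 10 receptor genes tested, 1 was called higher and 2 lower, with a median of 0.23. Without control 2, 3 were called higher and 3 lower, and the same counts held without creeping fat 2 and control 2 together. Over all 12812 genes tested, calls numbered 2896 higher and 1857 lower without control 2, and 2713 and 1731 without both. Cd14, the coreceptor that hands ligands to TLR4 and is itself in the macrophage list, rose to 44.9 ± 15.9 FPKM in creeping fat, against 9.06 ± 2.29 FPKM in controls (2.16 ± 0.29, limma adjusted p 0.00507). Cd36, a fatty acid and scavenger receptor that binds calprotectin carrying arachidonic acid and is abundant in adipocytes, fell to 46.7 ± 10.6 FPKM in creeping fat, against 325 ± 172 FPKM in controls (limma adjusted p 0.0135), and Alcam fell by 0.74 ± 0.18 on the log2 scale (limma adjusted p 0.0382). The Cd36 call ended without creeping fat 1 (0.0625), creeping fat 3 (0.0509) or control 3 (0.053), and that of Alcam without creeping fat 1 (0.142), creeping fat 2 (0.13), creeping fat 3 (0.0969), control 1 (0.0859) or control 3 (0.126) in limma. Alcam also lost its call with no filter on low values (0.0597), quantile normalization (0.0804) and median ratio scaling (0.0745). Ly96, or MD-2, which binds ligands beside TLR4, was above all controls without passing the test (0.93 ± 0.27, limma adjusted p 0.0582), and passed with quantile normalization (0.0223), with median ratio scaling (0.0308), without control 2 (0.00329) and without creeping fat 2 and control 2 (0.00243). Mcam, an adhesion molecule of vessel walls, was below all controls (-1.05 ± 0.29, limma adjusted p 0.0526), and passed with quantile normalization (0.0378), with the gland genes left out of the total (0.0428), without control 2 (0.00502) and without both (0.00299). Cd33 overlapped between groups (0.48 ± 0.37, limma adjusted p 0.442), and passed without control 2 (0.0218) and without both (0.0225). Ly96, Mcam and Cd33 were named after their values were seen. Tlr4 averaged 9.32 ± 0.747 FPKM in creeping fat and 7.57 ± 1.67 FPKM in controls (0.29 ± 0.18, limma adjusted p 0.353), and Ager, the gene of RAGE, averaged 1.55 ± 0.352 FPKM in creeping fat and 2.09 ± 2.20 FPKM in controls (-0.07 ± 0.45, limma adjusted p 0.945).

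The stromal members S100a4 and S100a6 rose beside the fibroblast list, of which 12 of 14 tested genes were called higher and 0 lower, with a median of 2.02 and summed levels of 10540 to 14020 FPKM in creeping fat and 1122 to 1472 FPKM in controls. The part of the fibroblast, monocyte and macrophage lists in the levels of S100a4 and S100a6 was not tested. S100a6 over Pdgfra, a fibroblast receptor, was 6.76, 6.09 and 6.84 in creeping fat and 5.93, 4.73 and 6.91 in controls, overlapping, while S100a4 over Pdgfra was 1.47, 1.77 and 1.38 in creeping fat against 0.721, 1.02 and 1.32 in controls, with no overlap, both chosen after their values were seen.

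Other S100 genes in the cluster were low. S100a14 was read at 5.07, 3.63 and 0.416 FPKM in creeping fat and 0.0469, 2.10 and 0.462 FPKM in controls (limma log2 fold change 1.02 ± 0.62, adjusted p 0.328). S100b, on chromosome 10 and known from glia and adipocytes, was read at 2.26, 1.19 and 1.01 FPKM in creeping fat against 2.88, 3.20 and 5.12 FPKM in controls, below all controls without passing the test (-0.93 ± 0.26, limma adjusted p 0.0546), and past it without control 2 (limma adjusted p 0.0301) or without creeping fat 2 and control 2 (0.0463). S100g, on chromosome X, was read at 1.38, 1.91 and 1.27 FPKM in creeping fat and 2.41, 3.27 and 1.20 FPKM in controls (-0.34 ± 0.27, limma adjusted p 0.447). S100a7a was read at 0.666, 0.775 and 1.34 FPKM in creeping fat and 0.542, 0.639 and 0.451 FPKM in controls and was below the level for testing. Schwann cell markers lay beside S100b: of 5 tested, 2 were called lower and 0 higher, with a median of -0.86 (0 called without creeping fat 2 or creeping fat 3, and 1 without creeping fat 1, control 1 or control 3), and their part in the S100b level was not tested.

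**Figure D4:**
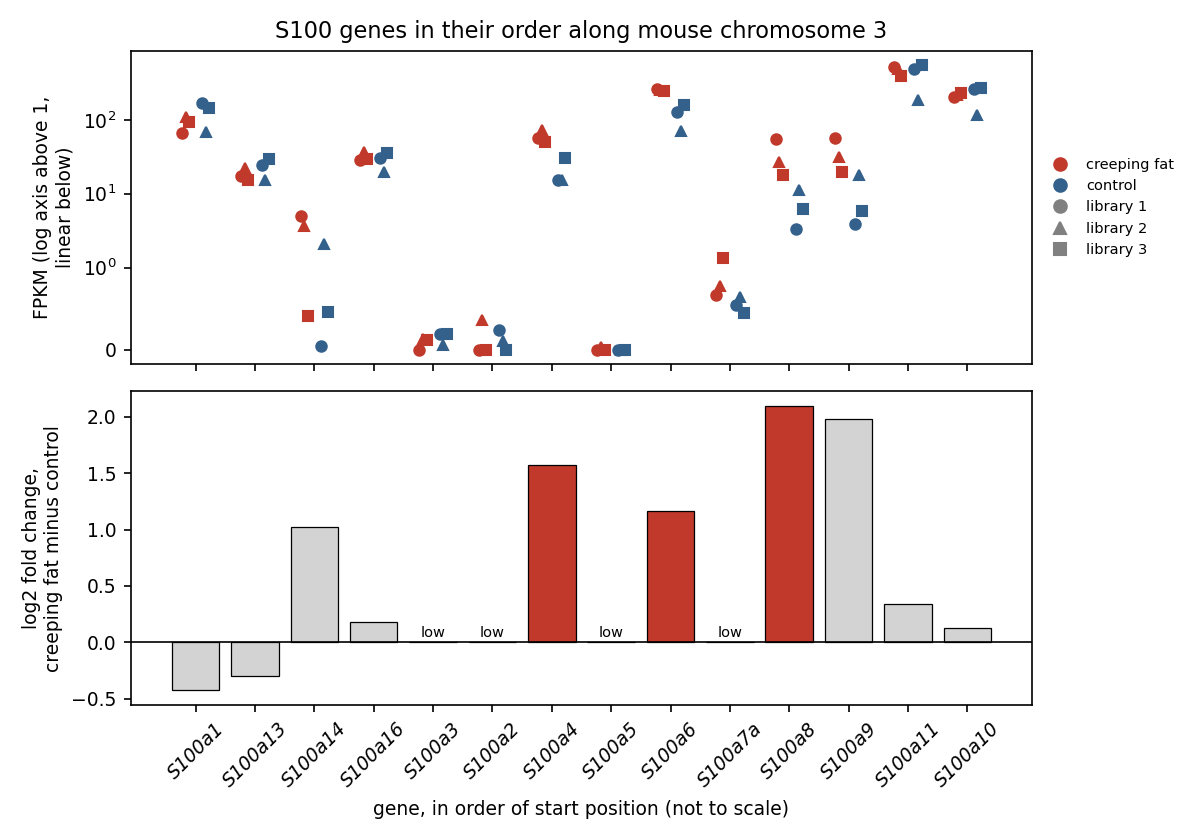
S100 genes in their order along chromosome 3, spaced evenly; the top panel gives the level in each library in FPKM, red for creeping fat and blue for control with the library number as shape, and the lower panel the log2 fold change, creeping fat minus control, with red bars for an adjusted p under 0.05. The called genes S100a4, S100a6 and S100a8 lie apart from S100a1 and S100a13, which have bars below 0, and low marks genes under the level for testing.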

How the data were processed

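Total RNA of 6 mouse adipose tissue libraries was measured. Per the labels' protocols, samples passed an RNA integrity limit and libraries were stranded after ribosomal RNA removal. The authors deposited FPKM values for 22134 genes, with no counts, on mm10 as the submitters' processing notes name it. The aligner, counter, annotation and strand setting are not given in the sources used here, so reads of overlapping or antisense genes cannot be told apart. FPKM is relative to the library total, so a class of transcripts that fills a library lowers all others.

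Whole reads were recovered for all 18714 genes above 0 (tolerance 0.002 reads) and serve for intervals and for a voom alternative. Values were tested as log2(FPKM + 1) in limma 3.58.1 (R 4.3.3) with a mean-variance trend, over the 12812 genes that reached 1 FPKM in 3 or more libraries, two-sided, with Benjamini-Hochberg adjustment and calls under 0.05. Fold changes on this scale understate the change of low genes. Ratios used FPKM with exact permutation tests (scipy 1.17.1). Scripts were tested on simulated data. The named genes were the 9 members, called genes of the S100, partner and receptor lists with direct partners named whatever their value, called or abundant markers of each list, and the 3 genes most like each of 5 members. The members and lists were chosen with earlier results of these data known. Other settings, leaving out each library and a replicate block were tried. Group and replicate number came from sample titles.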

Additional observations from a re-analysis of the deposited data

How the results depend on the processing

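Of 162 settings tried over the 9 members, 134 kept direction and side of the threshold, 17 lost the call, 5 gained a call and 6 turned the sign. The number of members called higher was 3, and was 1 without the filter on low values, 0 with a replicate block, and 0 to 4 with a library left out (0 without creeping fat 1, creeping fat 2 or control 1, and 4 without control 2). The number called lower was 0, with 0 to 1 over libraries left out and 2 without creeping fat 2 and control 2. Over all genes, calls higher numbered 1198, but 636 with the block, 576 to 2896 with a library left out and 2713 without both, and calls lower 872, but 378, 287 to 1857 and 1731. The highest of these counts, 2896 and 1857, were those without control 2. Plaur (0.0512), Ly6c2 (0.089), Ccr2 (0.051) and Alcam (0.0971) also lost their calls with the block in limma. Whether the replicate numbers pair the samples is not given in the labels and cannot be settled with 3 libraries a group. Same-numbered libraries had correlations of deviations of -0.18, -0.18 and -0.08, and 0 of 3 matched best with their own number. Leaving out control 2 moved the median log2 fold change of all genes to 0.13, and leaving out both to 0.15. Sign turned for S100a10 (-0.27 without both, -0.27 to 0.33 with a library left out), S100a11 (-0.20, and -0.15 to 0.64) and S100a16 (-0.18, and -0.0577 to 0.35). It also turned for Anxa2 (0.0007 without gland genes in the total, 0.0012 with voom, -0.49 to 0.30 with a library left out), Anxa11 (-0.0245 with median ratio scaling, -0.0068 to 0.0921), Ahnak (-0.11 to 0.37), Ager (0.0326 and 0.0578 with pseudocounts of 0.1 and 0.01, 0.16 with voom, 0.55 without both, -0.37 to 0.48) and Bsg (-0.0783 without both, -0.0271 to 0.29). The causes were not tested. Depth limits S100a8 in control 1, where 51 reads give an interval of 2.49 to 4.40 FPKM, and genes under the level for testing.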
